A study of Mus musculus with 4 samples.

Results

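The genes described here code for enzymes that conjugate, hydrolyse or oxidise foreign and odorant molecules. They were taken by name from the merged table of molecule counts: every gene whose symbol starts with Gsta, Gstm, Gstp, Gstt, Gsto, Ugt1a, Ugt2, Ces1, Ces2, Sult, Fmo or Aldh, without the names holding -ps, which mark pseudogenes. The rule gave 104 of 55511 genes. Among the 104, Fmod codes for fibromodulin, a proteoglycan of the extracellular matrix and not an enzyme, and it came in by its letters only.

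The libraries came from the main olfactory epithelium, the nasal tissue in which the olfactory sensory neurons (OSNs) lie, of 4 male C57BL/6 mice aged 8 weeks. The mice formed 1 group at rest with no treatment named in the labels, so the comparisons are between cell types of the same animals, with n = 4 mice. The tissue was dissociated with papain, and living nucleated cells were sorted and loaded on the 10x Genomics Chromium system, 1 library per mouse, in which each captured 3′ end carries a unique molecular identifier (UMI) and is counted once. The libraries held 23157467 to 32382702 UMIs, and 15859 cells in 10 types remained in the authors' annotation: mature OSNs (mOSN, 10519 cells), immature OSNs in clusters iOSN2 (1006) and iOSN1 (866), immediate neuronal precursors (INP, 284), globose basal cells (GBC, 202), horizontal basal cells in clusters HBC1 (210) and HBC2 (544), sustentacular cells (Sus, 336), and microvillar cells in clusters Mv1 (124) and Mv2 (1768). A level below is the UMIs of a gene per 10000 UMIs of all genes, summed over the cells of a type in a mouse, and is given as the mean ± SD over the 4 mice, or for mice 1 to 4 in that order. Since 1 UMI stands for 1 molecule whatever its length, levels of different genes are compared without dividing by length.

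Enzymes of this kind act in the nose as they do in the liver. Flavin monooxygenases (Fmo) oxidise nitrogen and sulphur compounds, aldehyde dehydrogenases (Aldh) turn aldehydes into acids, and carboxylesterases (Ces) cut esters, many of which are odorants. Phase II enzymes then attach a group that makes the product soluble: glutathione by the glutathione S-transferases (Gst), glucuronic acid by the UDP-glucuronosyltransferases (Ugt), and sulphate by the sulphotransferases (Sult). In the olfactory epithelium these activities are known mostly from the non-neuronal cells, the sustentacular cells that line the surface and the Bowman's glands that make the mucus.

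The labels of the types were compared with marker genes before the enzymes were described. Cells labelled Sus had high levels of Cyp2g1 (71.4) and Cyp1a2 (15.4), cytochromes P450 of the non-neuronal olfactory epithelium, but low levels of the sustentacular markers Sec14l3 (0.200) and Cbr2 (1.69). Of the 7 genes of the Bowman's gland list, 5 were highest in Sus, namely Cyp2a5 (107), Dcpp3 (33.99), Aqp5 (16.6), Gpx6 (10.8) and Bpifb9b (0.0131). Sox9, at 5.83 in Sus, was highest in Mv1 (10.3), and Muc5b, at 0.0992 in Sus, in HBC2 (0.296). The list, of which Cyp2a5 was the larger part, summed to 154 to 187 in the Sus cells of the mice, against 43.1 to 73.7 in HBC2. Cells labelled HBC2 carried the basal keratins Krt5 (7.28) and Krt14 (8.47) together with Cbr2 (70.8), Cyp2g1 (25.7) and Sec14l3 (15.2). Of the 6 genes of the sustentacular list, Cyp2g1, Cyp1a2 and Ermn (4.34) were highest in Sus, and Cbr2, Sec14l3 and Muc2 (2.49, against 0.00400 in Sus) in HBC2. Their sum was 78.6 to 104 in Sus and 100.1 to 164 in HBC2. Cbr2 was the larger part of the sum in HBC2, and it was also at 52.4 in HBC1, where Cyp2g1 was at 0.865. Keratin and Cyp2g1 were in different HBC2 cells: of the 544 cells, 395 had at least 2 UMIs of Krt5 and Krt14 together, 92 had at least 10 Cyp2g1 UMIs per 10000, 0 had both and 57 had neither. The type names are therefore used below as names of clusters, and for some members HBC2 values are also given for its keratin and its Cyp2g1 cells. In GBC, 3 genes of fibroblasts summed to 5.16 ± 2.21 and 4 genes of ensheathing glia to 2.82 ± 1.31. In HBC2 the fibroblast genes summed to 7.79 ± 0.619, almost all of it Dcn. Dcn, Col1a1 and Col1a2 were at 7.79, 0.00330 and 0.00190 in HBC2 and at 3.52, 0.780 and 0.861 in GBC. Their part in the levels of these clusters was not tested.

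Several members resemble each other closely, and this sets which of them 3′ counting can tell apart. The last 30 bases of the coding sequence are shown 5′ to 3′ for members that lead their families (GENCODE transcripts on GRCm38), with bases that are unlike the first gene of each family in capitals.
Gstm1: tcaaagatggcccactggagtaacaagtag
Gstm2: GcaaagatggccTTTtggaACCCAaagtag
Gstm5: GcCaagTGggGTAacAAgTgCTTATGCtGA
Sult1d1: tcaacactgaagtttagatcagagatctag
Sult1e1: tGCacTGtgaagtttagaATGgagCtctGA
Sult1c1: AGCacTAtTaCCttCCgCAcagagatctGA
In this stretch Gstm2 was unlike Gstm1 at 9 bases and Gstm5 at 19, and Sult1e1 was unlike Sult1d1 at 10 and Sult1c1 at 14. Of the runs of 60 bases in the last 500 transcript bases, 0.907% of those of Gstm2 and 0 of those of the other 5 genes occurred in another gene.

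Other members can be told apart in this way only in part or not at all. Ugt2a1 and Ugt2a2 have starts of their own and the same end, and the last 30 coding bases of Gstp1 and Gstp2 are the same. The first 30 coding bases (start codon in capitals) and the last 30 (stop codon in capitals) of the Ugt2a pair are shown, with the last 30 of the Gstp pair.
Ugt2a1, start: ATGttgaagaacattttgctctgttctctt
Ugt2a2, start: ATGatcaagaaggttttacagctgcttatt
Ugt2a1 and Ugt2a2, end: aagacaggaaagaagaaaaaacgtgacTAG
Gstp1 and Gstp2, end: cgtcccatcaatggcaatggcaaacagtag
Over the last 500 transcript bases, every run of 60 bases in 8 Ugt1a genes and in Ugt2a1 and Ugt2a2 occurred in another gene. So did 72.3% of the runs of Gstp1, 86.4% of those of Gstp2, 87.5% of those of Gsta1 and 52.2% of those of Sult2a2. Ugt1a7c was the exception among the Ugt1a genes, with 0 shared runs in its longest transcript, since the gene ends at 88220002 on chromosome 1. The other 8 Ugt1a genes end at 88218997 to 88219004, and Ugt1a7c is among the genes that hold their runs. Reads that match several genes are not counted by Cell Ranger, so low values of these genes are uncertain.

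Of the 104 members, 83 had at least 1 UMI in the retained cells and 21 had none. The members with none were 5 Ugt1a genes (Ugt1a1, Ugt1a2, Ugt1a8, Ugt1a9 and Ugt1a10), 3 Ugt2 genes (Ugt2b1, Ugt2b5 and Ugt2b37), Ces1c, Ces1g, Ces2a, Ces2c, Ces2h, 6 Sult genes (Sult2a4, Sult2a6, Sult2a7, Sult3a1, Sult3a2 and Sult6b2), Fmo9 and Aldh3b3. A further 15 had fewer than 10 UMIs. Levels of 1 or more per 10000 in some type were reached by 24 members, and 18 of these were highest in HBC2 (7 genes), Sus (6) or HBC1 (5). By their means the other 6 were highest in Mv2 (Aldh1l1 and Aldh1a1), mature OSNs (Sult1d1), iOSN2 (Sult4a1), INP (Sult6b1) and GBC (Sult2b1). The share of all genes at that level that were highest in each type was not counted, so these numbers describe the members only.

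The summed level of all members separated the types. It was 141 ± 13.3 in HBC2, 121 ± 4.98 in Sus and 117 ± 5.93 in HBC1, where the mice spanned 129 to 159, 116 to 126 and 109 to 122. Mv2 followed at 45.2 ± 2.55, and the other 6 types lay between 10.5 (iOSN1) and 19.8 (Mv1). HBC1 and Sus overlapped over mice, while every HBC2 value lay above both. Single genes carried large parts of some sums. Sult1d1 made up 80.1% of the sum in mature OSNs, which was 17.7 ± 1.66 with it and 3.53 ± 0.148 without it. Gstm1 made up 40.9% in HBC1, whereas no gene in Sus passed the 18.3% of Gstm5. In the immune cells that the authors had removed the sum was 9.79 ± 0.798, and in the removed blood cells 4.12 ± 0.745.

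**Figure D1:**
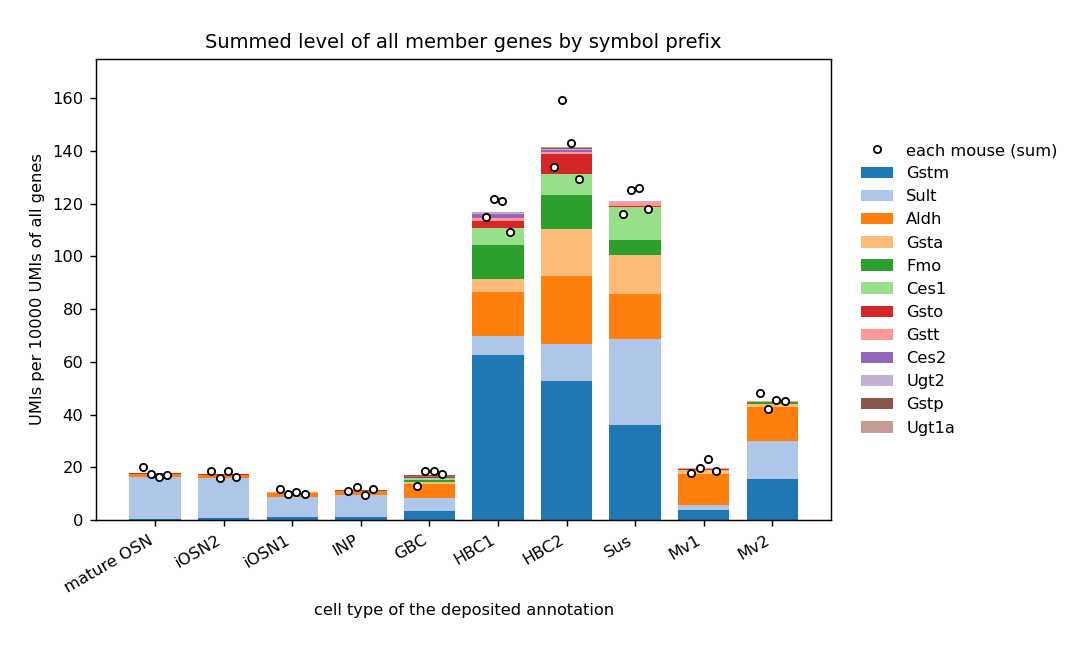
Summed level of the 104 genes (UMIs per 10000 UMIs of all genes) in the 10 cell types, with bars for the mean over 4 mice divided by symbol prefix and circles for the sum in each mouse. HBC2, Sus and HBC1 stand at 141, 121 and 117, Mv2 at 45.2 and the other types lower.

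In an edgeR quasi-likelihood test on UMI sums per mouse and type, 50 members passed the filter on low counts, and all 50 differed among the 10 types, where 97.1% of 12549 tested genes did. The types were drawn by clustering the same cells on expression, so the tests here and below measure how steady a difference is over the 4 mice. Members that are high in a single type passed the filter through that type, and the other 54 were not tested. In the comparisons below, changes are log2 changes ± SE with adjusted p-values from edgeR. The SE was taken as the size of the change divided by the square root of the F statistic, and is not an SD over mice.

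Glutathione S-transferases of the mu class (Gstm) formed the largest block in HBC1 and HBC2. Gstm1 was at 43.9, 51.5, 50.6 and 44.7 per 10000 in HBC1, and at 30.2, 56.3, 43.1 and 44.2 in HBC2. These clusters overlapped and lay above Sus (10.1 ± 1.22), Mv2 (5.60 ± 0.186) and the remaining types in every mouse. Gstm2 was ordered with no overlap between neighbours, at 13.1 ± 1.43 in HBC1, 7.42 ± 1.79 in HBC2 and 3.34 ± 0.498 in Sus. Gstm5 had another order. It was at 20.2, 23.2, 22.7 and 22.8 in Sus and at 10.5, 7.27, 8.52 and 9.62 in Mv2. GBC (1.68 ± 0.487), HBC2 (1.39 ± 0.745) and HBC1 (0.921 ± 0.253) lay below Mv2 in every mouse. The 7 Gstm genes form 1 cluster on chromosome 3 (GRCm38, 107895821 to 108044894). Gstm5, at its first edge, was highest in Sus, Gstm1, Gstm2, Gstm3, Gstm6 and Gstm7 in HBC1, and Gstm4 in HBC2.

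The other Gst classes were smaller. Gsta4, which acts on lipid aldehydes such as hydroxynonenal, was at 12.7, 8.37, 10.6 and 8.93 in HBC2 and 2.88 ± 0.285 in HBC1, without overlap. Gsta3 was highest in Sus, at 11.1, 11.8, 11.1 and 11.97, and next in HBC2 (7.13 ± 1.02), also without overlap. Gsto1, an omega-class transferase, was at 6.67 ± 0.990 in HBC2 and 2.56 ± 0.181 in HBC1 but at 0.154 ± 0.0541 in Sus. Gstt3, of the theta class, was at 1.31 ± 0.197 in Sus and 0.621 ± 0.149 in HBC2. Gstp1 reached 0.325 ± 0.127 in HBC2, its highest type, with the shared end shown above.

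Counts of the glucuronosyltransferases were low throughout. For Ugt2a1, Ugt2a2 and most Ugt1a genes the shared ends make low values uncertain. Ugt2a1, the olfactory member, was at 0.253, 0.384, 0.293 and 0.440 in Sus and at 0.340 ± 0.0642 in HBC1, with overlapping mice. In the Cyp2g1 cells of HBC2, described below, it was at 0.989, 0.561, 0.769 and 0.649, above every Sus value, and in the keratin cells at 0.0646 ± 0.0349. Ugt1a7c, the Ugt1a gene whose longest transcript runs past the shared end, was the highest of its group at 0.0658 ± 0.0129 in HBC1. The 9 Ugt1a genes summed to 0.137 ± 0.0761 there. How much RNA of the Ugt1a genes and of Ugt2a1 and Ugt2a2 went uncounted because of the shared ends was not tested. Whether UMIs of Ugt1a7c came from other Ugt1a transcripts was not tested either.

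Sulphotransferases were the most divided family. Sult1c1 was at 22.01, 19.7, 25.01 and 20.97 in Sus and at 16.4, 12.9, 13.4 and 13.1 in Mv2, so that every Sus value lay above every Mv2 value. Sult1e1, the oestrogen sulphotransferase, was at 10.1 ± 0.602 in Sus, 5.25 ± 1.43 in HBC1 and 2.77 ± 1.003 in HBC2. GBC overlapped HBC2, at 2.35 (0.622 to 4.23 over mice), with UMIs of the gene in 14.5 ± 6.04% of its cells. Sult1d1, which sulphates catecholamines and other phenols, was highest in mature OSNs, at 16.8, 13.8, 12.7 and 13.5, with iOSN2 at 13.3 ± 1.32 and iOSN1 at 5.50 ± 0.972. Sult1d1 and Sult1e1 are neighbours on chromosome 5 (GRCm38, 87554645 to 87569027 and 87575969 to 87591594, both on the minus strand). Sult4a1, a sulphotransferase of the brain, was at 1.92 ± 0.188 in iOSN2, 1.92 ± 0.0829 in iOSN1, 1.65 ± 0.0810 in mature OSNs and 1.19 ± 0.227 in INP. The first pair overlapped, and the next non-neuronal type, HBC1, was at 0.144 ± 0.138.

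Sult6b1 was mainly a gene of the neuronal precursors. Its level in INP was 3.91, 7.25, 3.32 and 5.06, against 0.275 ± 0.343 in HBC2, the next type, and 0.0308 ± 0.0228 in Sus, the third. It was found in 61.1 ± 0.769% of INP cells and in 0.272 ± 0.0474% of mature OSNs, at median depths of 3288 to 9811 and 4004 to 6591 UMIs per cell in the 4 mice. Sult6b1 alone made up 43.5% of the summed level of all members in INP. Sult2b1, which sulphates cholesterol, was highest in GBC at 1.21 ± 0.277, followed by INP at 0.480 ± 0.220, without overlap.

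**Figure D2:**
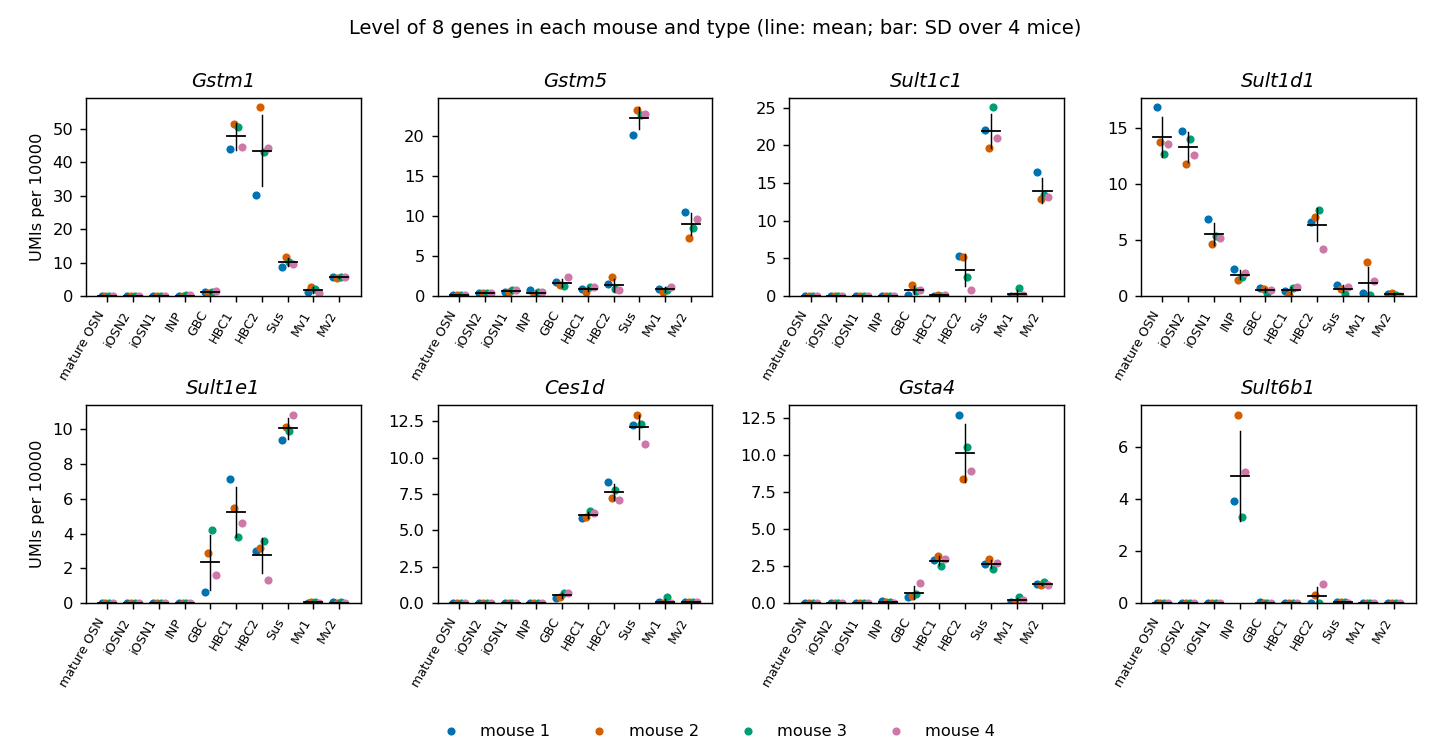
Level (UMIs per 10000) of 8 members in each of the 10 types, with points for the 4 mice, lines for the mean and bars for the SD. Gstm1 is highest in HBC1 and HBC2, Gstm5, Sult1c1, Sult1e1 and Ces1d in Sus, Gsta4 in HBC2, Sult1d1 in mature OSNs and Sult6b1 in INP.

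Sult1d1 was also present in HBC2, at 6.59, 7.05, 7.63 and 4.22 per 10000. This was 45.5 ± 12.8% of its level in mature OSNs of the same mouse, whereas the neuronal genes Omp and Stoml3 stood in HBC2 at 5.79 ± 2.73% and 4.75 ± 2.63% of their own neuronal level. In Sus the shares were 4.50 ± 1.90% for Sult1d1 and 4.82 ± 2.16% for Omp, and in the removed immune cells 8.05 ± 1.79% and 9.01 ± 2.14%. Sult1d1 was found in 46.8 ± 3.98% of HBC2 cells, 6.66 ± 1.05% of Sus cells and 95.7 ± 1.17% of mature OSNs, at median depths of 4943 to 8497, 4784.5 to 7428 and 4004 to 6591 UMIs. As a share of its neuronal level, Sult1d1 stood about where Omp did in Sus and immune cells, and above it in HBC2. What accounts for these shares was not tested.

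Carboxylesterases split by group. Ces1d, which hydrolyses lipid and drug esters, was at 12.2, 12.97, 12.3 and 10.98 per 10000 in Sus and made up 95.4% of the Ces1 sum there. HBC2 (7.62 ± 0.560) and HBC1 (6.07 ± 0.209) followed without overlap, and the next type, GBC, was at 0.555 ± 0.179. Ces2 genes were found mainly in HBC1 and HBC2. They summed to 1.46 ± 0.215 in HBC1 and 0.825 ± 0.144 in HBC2, led in HBC1 by Ces2g (0.781 ± 0.202), and had 0 UMIs in all Sus cells. The Ces1 and the Ces2 genes form separate clusters on chromosome 8, and the 4 Ces2 genes detected were all highest in HBC1.

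By their means, the flavin monooxygenases described here were highest in HBC1 or HBC2. Fmo2 was at 4.73 ± 0.285 in HBC2, 4.22 ± 1.09 in Sus and 4.11 ± 0.921 in HBC1, with overlapping mice, and Mv2 followed at 0.467 ± 0.0676. Fmo6 was highest in HBC1 (6.23 ± 0.821) and then HBC2 (3.83 ± 1.12), and lay at 0.356 ± 0.0178 in Sus. Fmo1, a drug-oxidising member, was at 2.22 ± 0.346 in HBC2 and 0.790 ± 0.326 in Sus. Fmod, the matrix gene, was at 1.76 ± 0.304 in HBC1 and 0.0701 ± 0.102 in GBC, its next type.

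Aldehyde dehydrogenases were spread over more types. Aldh2, the mitochondrial enzyme that oxidises acetaldehyde, was at 13.9 ± 2.02 in HBC2, 13.3 ± 1.03 in Sus, 8.51 ± 1.48 in Mv1 and 7.58 ± 0.665 in HBC1. It was the leading member in GBC (15.7% of the sum) and Mv1 (42.99%). Aldh3a1, the abundant aldehyde dehydrogenase of the cornea, was at 6.56, 6.14, 7.24 and 5.28 in HBC2 and 3.11 ± 0.506 in HBC1, with 2 UMIs in all Sus cells. Aldh1l1, a folate enzyme, was at 2.88, 3.41, 3.91 and 3.20 in Mv2 and 1.13 ± 0.220 in HBC1. Aldh1a1, which makes retinoic acid, was at 1.96 ± 0.158 in Mv2 and 1.88 ± 0.805 in HBC2, which was the higher of the pair in 3 of 4 mice, and had 0 UMIs in HBC1. Aldh6a1, of valine breakdown, was at 1.93 ± 0.277 in HBC1.

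**Figure D3:**
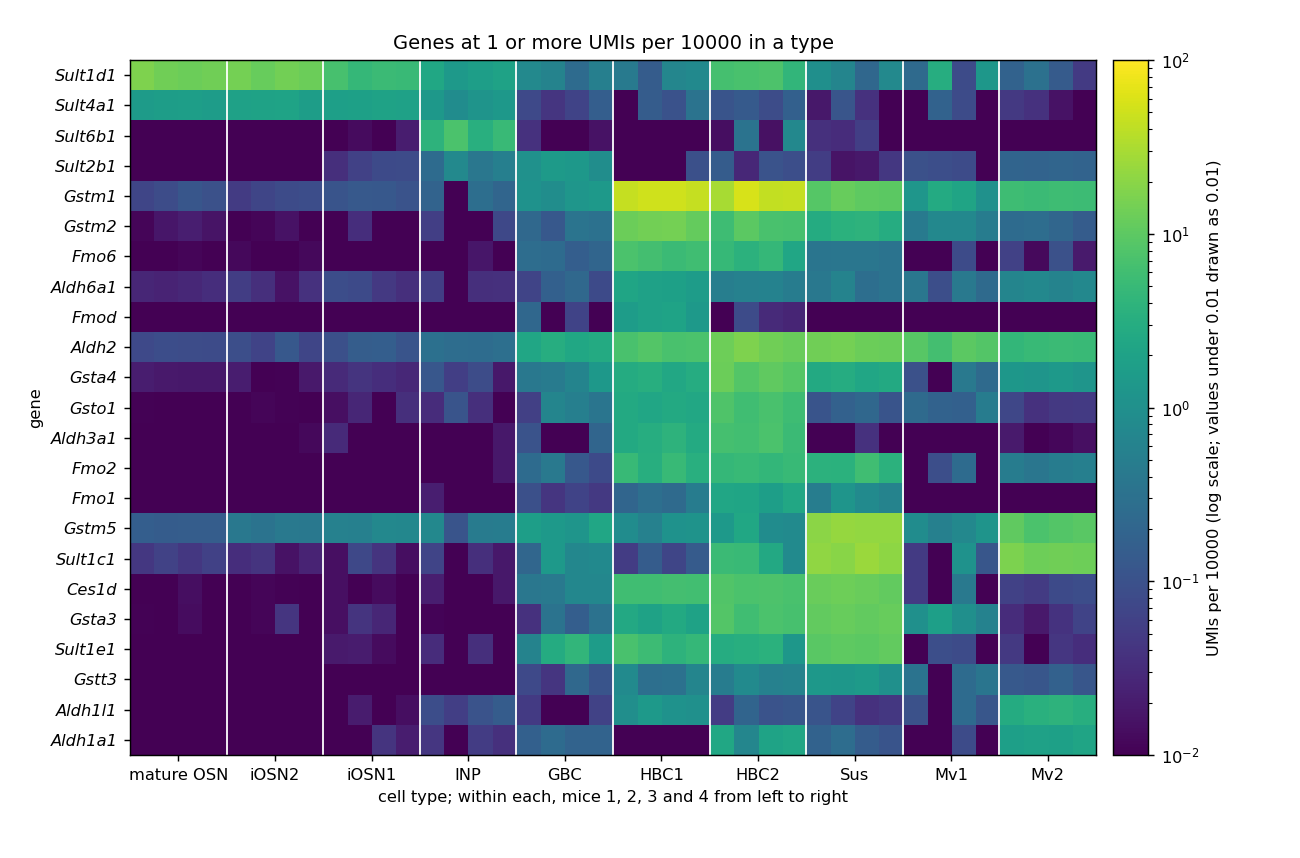
Level of the described members with 1 or more UMIs per 10000 in some type, as colour on a log scale, with 1 column per mouse within each of the 10 types and values under 0.01 drawn as 0.01. Most are highest in HBC1, HBC2 or Sus, and the 4 columns of a type mostly resemble each other.

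Sus cells were compared with mature OSNs, the most numerous type. Of the 50 members tested, 35 were higher in Sus and 5 lower, where 34.2% and 34.9% of all tested genes were (69.1% in either direction). The median log2 change of the tested members was 4.61, against -0.05 for all tested genes. All 3 tested Gsta genes, all 3 Gstt genes and both Ces1 genes rose, as did 4 of 5 Gstm genes, 5 of 6 genes with an Fmo symbol, Gstp1 and Ugt2a1. Of 15 Aldh genes 11 rose and 2 fell, of 9 Sult genes 4 rose and 2 fell, 1 Gsto gene rose and the other fell, and none of the 3 Ces2 genes was called. The largest rises were of Sult1e1 (11.33 ± 0.36, adjusted p = 7.93e-26), Ces1d (10.54 ± 0.15), Gsta3 (10.12 ± 0.20), Fmo2 (9.79 ± 0.22) and Gstt3 (8.83 ± 0.35). Those that fell were Sult4a1 (-5.05 ± 0.34, on 10 UMIs in 6 Sus cells, and -6.28 without mouse 2), Sult1d1 (-4.34 ± 0.27), Aldh18a1 of proline synthesis (-1.81 ± 0.42), Gsto2 (-1.65 ± 0.54) and Aldh3b1 (-0.87 ± 0.31, adjusted p = 0.0143). The call for Aldh3b1 was lost without mouse 1 (adjusted p = 0.0981), 2 (0.0569) or 3 (0.0520) and in cells with at least 2000 genes (0.0546), and that for Gsto2 without mouse 4 (0.0669).

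Sus cells were then compared with HBC2, the cluster with the highest sum. Here 10 of the 50 members were higher in Sus and 23 lower, where 11.8% and 18.5% of all tested genes were (30.4% in either direction). The median change was -1.22, against -0.13 for all tested genes. Gstm5 (4.14 ± 0.17, adjusted p = 2.34e-21), Sult1c1 (2.70 ± 0.24), Sult1e1 (1.85 ± 0.22), Aldh4a1 of proline breakdown (1.71 ± 0.24) and the fatty aldehyde dehydrogenase Aldh3a2 (1.26 ± 0.19) rose most. Aldh3a1 had 2969 UMIs in HBC2 and 2 in Sus, a ratio of 709 per UMI of all genes with a 95% counting interval of 196 to 5857. Of the Ces2 group, all 3 tested genes fell to 0 UMIs in Sus. Ces2g, with 259 UMIs in HBC2, was at least 41.2-fold lower, Ces2b at least 7.96-fold and Ces2e at least 6.69-fold, against a floor of 3 counts over all Sus cells. The call for Ces2b was lost in DESeq2 (adjusted p = 0.412), and without mouse 1 the gene did not pass the filter. Sult5a1 also fell to 0, from 45 UMIs, at least 7.16-fold. Gsto1 (-5.43 ± 0.24), Gstm1 (-2.08 ± 0.14) and Gsta4 (-1.94 ± 0.15) fell too. Aldh2 did not pass the test (-0.05 ± 0.08, adjusted p = 0.686), but was called after thinning each cell to 2000 UMIs and against each of the 2 sets of HBC2 cells below. Counting intervals and floors here cover counting error only.

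Since HBC2 held keratin cells (45 to 170 per mouse) and Cyp2g1 cells (15 to 34) apart, the levels were also read in each. This division was made after the values had been seen, and the values of its 2 sets of cells are given as a description, with no test between them. The summed level of all members was 116, 121, 127 and 108 in the keratin cells and 211, 219, 214 and 166 in the Cyp2g1 cells, without overlap. Of the 24 members at 1 or more per 10000, 7 were higher in the Cyp2g1 cells without overlap, 8 were higher in the keratin cells and 9 overlapped. Among the 4151 tested genes of any kind at that level, 32.5% were higher in the Cyp2g1 cells without overlap and 12.9% in the keratin cells. Gstm1 was at 20.9 ± 3.34 in keratin cells and 104 ± 10.7 in Cyp2g1 cells, and Aldh2 at 8.85 ± 1.24 and 24.5 ± 4.75. Gstm2 was at 4.92 ± 0.567 and 14.9 ± 2.50, and Sult6b1 at 0.00593 ± 0.0119 and 0.809 ± 1.01. UMIs of Sult6b1 were in only 15 of the 544 HBC2 cells. Gstm5 was at 0.416 ± 0.166 and 3.77 ± 2.44, with overlapping mice. In the other direction, Sult1e1 was at 4.18 ± 1.46 in keratin cells and 0.260 ± 0.143 in Cyp2g1 cells. Aldh3a1 (8.91 ± 1.12) and Gsto1 (9.56 ± 0.650) were in the keratin cells, with 2 and 3 UMIs in all Cyp2g1 cells. Ces2g (0.806 ± 0.135) had 0 UMIs in the Cyp2g1 cells.

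Sult1d1 was at 7.41, 8.70, 10.2 and 5.67 in the keratin cells and at 1.92, 4.49, 1.05 and 1.34 in the Cyp2g1 cells. The means of Omp had the reverse order, 2.09 ± 1.01 and 8.96 ± 5.78. The genes were not read together cell by cell, and where the Sult1d1 UMIs of HBC2 came from was not tested. Sult1c1 in the Cyp2g1 cells differed widely between mice, at 26.03, 12.5, 11.4 and 1.62, and was at 0.303 ± 0.186 in the keratin cells. Aldh1a1 was at 0.887 ± 0.706 and 0.969 ± 0.259, both means below that of HBC2 as a whole (1.88). HBC2 also holds the 57 cells with neither marker, whose levels were not read apart.

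Against the keratin cells alone, 38 of 51 members tested differed from Sus, where 32.9% of 12226 genes did, among them 29 of the 33 called against all HBC2 cells. Against the Cyp2g1 cells alone, 23 of 48 differed, where 25.1% of 11437 genes did, among them 19 of the 33. Aldh3a1, Fmo1, Ces2g, Ces2b and Ces2e were among the 14 no longer called there. Gstm1 and Gstm5 were called against both. Aldh2 was too, with Sus (13.3 ± 1.03) above the keratin cells and below the Cyp2g1 cells.

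**Figure D4:**
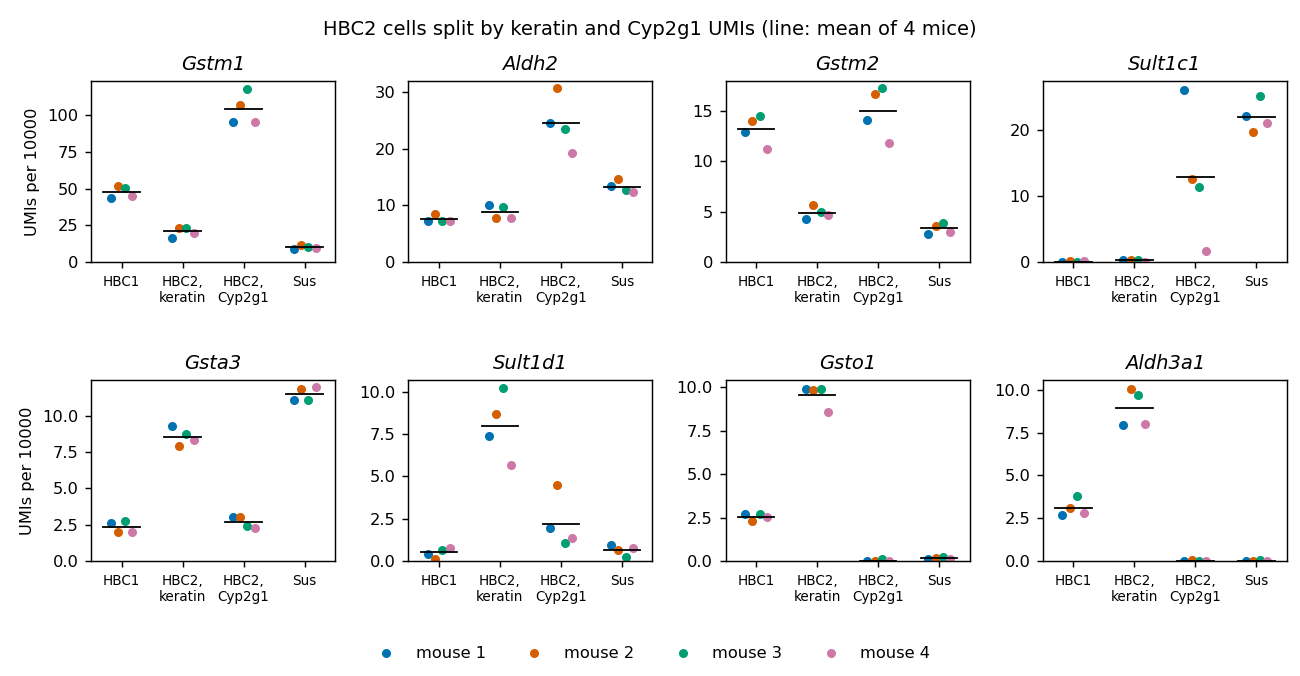
Level (UMIs per 10000) of 8 members in HBC1, in HBC2 cells with keratin UMIs, in HBC2 cells with Cyp2g1 and in Sus, with points for the 4 mice and lines for the mean. Gstm1, Aldh2, Gstm2 and Sult1c1 are higher in the Cyp2g1 cells of HBC2, and Gsta3, Sult1d1, Gsto1 and Aldh3a1 in the keratin cells.

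Mv2, in which 5 of 6 genes of an ionocyte list were highest, had Gstm5 and Sult1c1 at levels next to those of Sus. Of the 50 tested members, 27 were higher in Sus than in Mv2 and 5 lower, where 22.9% and 23.7% of all tested genes were (46.7% in either direction), and the median change was 1.20 against -0.01. Gsta3 (8.46 ± 0.22), Sult1e1 (8.44 ± 0.36) and Ces1d (7.71 ± 0.15, adjusted p = 2.89e-31) rose. Fmo1 had 177 UMIs in Sus and 1 in Mv2, a ratio of 757 per UMI of all genes (counting interval 134 to 30058). Ugt2a1 had 74 and 1, a ratio of 316 (55.1 to 12664). Lower in Sus were Aldh1l1 (-5.44 ± 0.22), Aldh1a1 (-3.14 ± 0.26), Sult2b1 (-2.32 ± 0.53), Gstm7 (-0.82 ± 0.26) and Aldh6a1 (-0.50 ± 0.20, adjusted p = 0.0428). The call for Aldh6a1 was lost without mouse 1 (adjusted p = 0.0856), 3 (0.159) or 4 (0.231) and under 6 other settings, among them DESeq2 (0.0958) and thinning (0.899). That for Gstm7 was lost after thinning (0.0654).

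Maturation of the neurons was read from mature OSNs against iOSN1. In this comparison 3 of 50 members were higher in mature OSNs and 11 lower, where 30.5% and 30% of all tested genes were (60.4% in either direction), and the medians were -0.02 and 0.00. Sult1d1 rose (1.55 ± 0.17, adjusted p = 8.38e-10), as did Aldh3b1 (1.72 ± 0.24) and Gsto2 (1.47 ± 0.36). Along the neuronal types Sult1d1 was at 1.90 ± 0.393 in INP, lower than in iOSN1, while iOSN2 and mature OSNs overlapped. Gstm7 (-5.99 ± 0.31), Sult2b1 (-4.93 ± 0.50), Aldh9a1 of carnitine synthesis (-4.90 ± 0.35) and Gstp1 (-3.25 ± 0.45) fell, and the highest of these in iOSN1, Gstm7, was at 0.212 ± 0.0239 there. The call for Gstt1 rested on 1 UMI in mature OSNs and 3 in iOSN1 (ratio 0.0396, counting interval 0.000755 to 0.494), the mice overlapped, and it was lost without mouse 1 (adjusted p = 0.0535) or 4 (0.0738). Sult4a1 did not pass the test (-0.03 ± 0.11, adjusted p = 0.825).

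Mature OSNs were also divided by the authors into dorsal (2733 cells) and ventral (6806 cells) clusters, which lie in different zones of the nasal cavity and were told apart by the markers Nqo1 (dorsal) and Nfix (ventral). Of 19 members tested, 2 were higher in dorsal OSNs and 3 lower, where 12.2% and 13.3% of 12406 tested genes were (25.5% in either direction), with medians of -0.08 and -0.01. Sult1d1 was at 24.2, 20.6, 18.9 and 20.1 in dorsal and at 13.1, 11.6, 9.73 and 11.4 in ventral OSNs (0.92 ± 0.02, adjusted p = 3.11e-10). Every dorsal value lay above every ventral value. Aldh3b1, which acts on lipid-derived aldehydes, had the reverse order, at 0.00651, 0.00763, 0.0197 and 0.0139 in dorsal and 0.485, 0.491, 0.495 and 0.538 in ventral OSNs (-5.34 ± 0.17, adjusted p = 1.59e-09). Sult1c1 was higher in dorsal OSNs (0.120 ± 0.0366 against 0.0268 ± 0.00702, log2 change 2.18 ± 0.23). Gstm1 (-0.90 ± 0.20) and Aldh3a2 (-0.37 ± 0.12, adjusted p = 0.0425) were lower. The call for Gstm1 was lost without mouse 3 (adjusted p = 0.0541) and after thinning (0.133). That for Aldh3a2 was lost without mouse 1 (adjusted p = 0.0718), 3 (0.133) or 4 (0.181), in DESeq2 (0.235), without the mouse as a block (0.0651), after thinning (0.566) and in cells with at least 2000 genes (0.107).

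Sult1d1 also varied within each zone. Among dorsal clusters it ran from 14.7 ± 3.95 in Cd55+ to 26.1 ± 2.34 in Calb2+ OSNs, and among ventral clusters from 9.14 ± 0.989 in Cd36+ to 17.9 ± 1.01 in Calb2+ OSNs. The ventral Calb2+ cluster overlapped the dorsal Cd55+, Cd36+ (15.7 ± 1.72) and Dlg2+ (18.4 ± 2.88) clusters. Aldh3b1 was at 0.738 ± 0.180 in ventral Calb2+ OSNs and 0.0534 ± 0.0524 in ventral Cd36+ OSNs, and its highest dorsal mean was 0.0281, in Dlg2+ OSNs, which overlapped the ventral Cd36+ cluster over mice. Sult4a1 lay between 1.36 and 1.74 in the means of all 10 clusters.

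**Figure D5:**
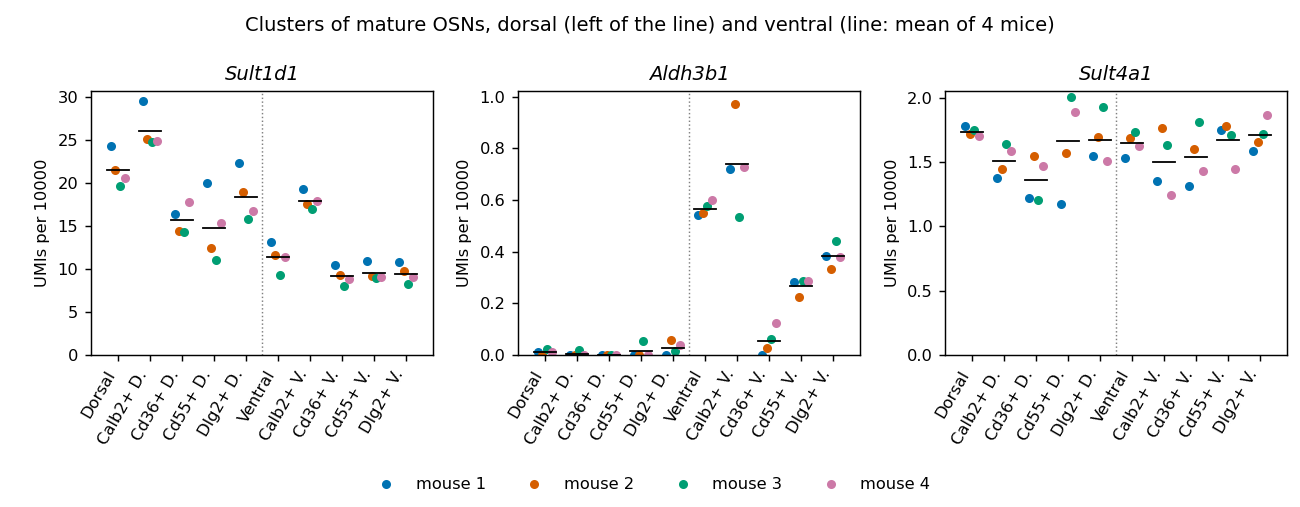
Level (UMIs per 10000) of 3 members in the 5 dorsal and 5 ventral clusters of mature OSNs, with points for the 4 mice and lines for the mean. Sult1d1 is highest in the Calb2+ cluster of each zone, the means of Aldh3b1 are higher in the ventral clusters, of which Cd36+ overlaps dorsal clusters over mice, and the means of Sult4a1 stay between 1.36 and 1.74.

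Other genes of the same pathways were read from a list of 61, of which 50 were tested over the 10 types. In Sus against mature OSNs 31 rose and 8 fell, where 34.2% and 34.9% of all tested genes did. Against HBC2 9 rose and 17 fell (11.8% and 18.5% of all), and against Mv2 30 and 7 (22.9% and 23.7%). In mature OSNs against iOSN1 20 rose and 10 fell (30.5% and 30%). In Sus against mature OSNs, 9 of the 11 listed genes for the synthesis, transport or recycling of cosubstrates rose. Ugdh, which makes the glucuronic acid donor, was at 3.79 in Sus and 0.363 in mature OSNs (3.49 ± 0.10). Gclm, a subunit of the enzyme that starts glutathione synthesis, was at 21.02 in HBC1, 5.28 in HBC2 and 2.95 in Sus. Papss2, which makes the sulphate donor of the Sult enzymes, was at 1.09 in HBC1, 1.03 in HBC2 and 1.05 in Sus.

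Papss2 also divided the neurons. It was at 0.679, 0.557, 0.577 and 0.609 in dorsal and 0.0320, 0.0287, 0.0360 and 0.0429 in ventral OSNs (4.16 ± 0.12, adjusted p = 5.55e-10), the direction that Sult1d1 had. Nqo1, the quinone reductase by which the dorsal clusters had been chosen, was at 24.6 ± 4.21 and 0.566 ± 0.150, values that describe that choice and are no result of the comparison. Of the 40 listed genes tested in this comparison, 12 were higher in dorsal OSNs (Nqo1, fixed by the choice of clusters, is counted among them) and 4 lower, where 12.2% and 13.3% of all tested genes were. Nfe2l2, the regulator of the antioxidant response, rose from 0.844 in iOSN1 to 4.57 in mature OSNs (2.62 ± 0.11), and the 5 regulators tested all rose there, where 30.5% of all tested genes did.

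Promoters of the members were searched for the antioxidant response element (TGACNNNGC) and the xenobiotic response element (GCGTG), on both strands of RefSeq windows from 250 bases before to 50 after each start (GRCm38.p6), found for 86 of the 104 genes. The antioxidant element was in 5 of 100 member promoters and in 12.4% of 32851 promoters, and the xenobiotic element in 21 of 100 and in 32.4%. The 30 bases around a match are shown, in the direction of the gene with the match in capitals, for Gsta3 and Gstm5, the members of the antioxidant set with the highest levels, and for Sult1d1, highest in mature OSNs.
Gsta3, antioxidant element, chr1:21240454-21240483, plus strand: aactcaggcaTGACATTGCatttttcttct
Gstm5, antioxidant element, chr3:107895802-107895831, plus strand: caccgcccacTGACCACGCggagggcgggt
Sult1d1, xenobiotic element, chr5:87569036-87569065, minus strand: agctgttaacaaCACGCaaaacatggaggt
The match in Gstm5 overlaps a xenobiotic match on the other strand. A match of letters is a description of the window and not a site of binding.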

How the data were processed

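Single-cell libraries of the main olfactory epithelium of 4 mice were analysed. Reads were mapped by the authors to GRCm38 (Cell Ranger 6.0.1), who deposited raw UMI counts per gene and barcode (21809 barcodes) and a table of cells with the cell type and the percent of mitochondrial UMIs. They clustered the cells with Seurat, removed immune, blood and high-mitochondrial clusters, and then cells with many mitochondrial UMIs or few genes. The numbers of barcodes stated for mice 3 and 4 differ slightly from those in the files, while the total does not. The 416 sums of members per mouse were equal in the merged table and the matrices. Barcode sequences shared by mice numbered 54. Scrublet (scanpy 1.11.5) marked 0.0176% to 0.616% of the barcodes of a mouse, where 5% had been set as the expected rate. Leaving out the 4% with the highest scores was therefore an alternative.

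Raw counts were summed per mouse and type (40 sums, and 8 for dorsal and ventral OSNs) and tested with edgeR 4.0.16 in R 4.3.3 (TMM, filterByExpr, quasi-likelihood, Benjamini-Hochberg over all tested genes, 0.05). The mouse was a block because sums of 1 mouse come from 1 animal and library. Deviations of the same mouse correlated at 0.125 to 0.260 in the dorsal and ventral sums and at 0.0230 to 0.103 in Sus and mature OSNs, above those of different mice. For Sus and HBC2 (0.0136 to 0.110), Sus and Mv2 (0.00624 to 0.0804) and mature OSNs and iOSN1 (-0.0129 to 0.114) they overlapped those of different mice. Fits were first tested on simulated data. Named were members at 1 or more per 10000 in a type, the highest of each prefix, and the 5 called with the largest change in each direction. Further members are named where a sentence describes their group and were chosen after their values were seen. The members and lists were chosen with earlier results of these data known. Alternatives were DESeq2 1.42.0, its size factors, no filter, no block, each mouse left out, cells thinned to 2000 UMIs, cells with at least 2000 genes, levels as means over cells, and, added after the data were seen, HBC2 cells with keratin or with Cyp2g1. The values of 1 named member are not reported here.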

Additional observations from a re-analysis of the deposited data

Results flagged for a closer look

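The summed level of all members in GBC was 13.1 in mouse 1 and 17.6, 18.5 and 18.5 in mice 4, 3 and 2. The gap from mouse 1 to the nearest other mouse was 0.836 of the whole range, above Dixon's critical value for 4 values. The same screen covered 38 groups, and chance marks about 1 in 20. Without mouse 1 the mean was 18.2.

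Gstp3, a pi-class glutathione S-transferase, was higher in the blood cells that the authors had removed than in any of the 10 types in 4 of 4 mice. Its mean was 0.209 per 10000 in blood cells (0.0946 to 0.374, 50 UMIs) and 0.0428 in HBC2, the highest of the types. The removed immune cells were at 0.0981.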

How the results depend on the processing

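Of the recomputed log2 changes of the named members, 450 kept their direction and their side of the threshold, 29 lost the call and 3 changed sign. Those 3 were Sult5a1 (0.047) and Ces2e (0.020) in Sus against the Cyp2g1 cells of HBC2, where both groups had 0 UMIs, and Gstt1 in mature OSNs against iOSN1 after thinning (0.41). Settings under which a gene did not pass the filter gave no value for it. Thinning moved some kept changes by over 1.5 times, as of Sult1c1 (3.80) in Sus against HBC2 and of Sult4a1 (-6.62) and Sult1d1 (-5.19) in Sus against mature OSNs. It left 35 members to test, of which 9 differed between mature OSNs and iOSN1 in place of 14. Leaving out 1 mouse gave 48 to 51 calls among the 10 types, 38 to 40 for Sus against mature OSNs, 29 to 33 against HBC2, 28 to 32 against Mv2, 11 to 14 for mature OSNs against iOSN1 and 3 to 5 for dorsal against ventral OSNs, where the lowest count was without mouse 3. Without the mouse as a block, which drops the pairing of sums by animal, the counts were 50, 40, 33, 32, 15 and 4, Aldh3a2 was no longer called in dorsal against ventral OSNs (adjusted p = 0.0651), and Sult6b1 was lost and Ces1e gained in Sus against HBC2. The Gsta3 call in Sus against HBC2 was lost in DESeq2, as was that of Sult1c1 in Sus against Mv2, which was also lost without mouse 3. The summed level in GBC was 13.6 without the highest doublet scores, and that in Sus was 129 after thinning, 129.6 without those scores and 127 as a mean over cells. DESeq2 gave a median of all genes in Sus against mature OSNs of 0.06 in place of -0.05, and its size factors alone in edgeR 0.0056. Of the recomputed levels of the named members in their highest type, 201 moved by less than the SD over mice and 23 by more, of which 8 after thinning, 6 without the highest doublet scores, 5 as a mean over cells and 4 in cells with at least 2000 genes. Small clusters limit the rest: Mv1 and GBC had as few as 20 and 24 cells in a mouse, and the Cyp2g1 cells of HBC2 as few as 15.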
